A study of Rattus norvegicus with 27 samples.

Results

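Motile cilia are the beating, hair-like extensions of a cell, and the axoneme is the cylinder of microtubules, dynein motors and radial spokes that moves them. The genes described here were taken by name from the gene table of the cerebellar interpositus nucleus (IP) of rats. They are every gene whose symbol begins with Cfap, Dnah or Dnai, with Foxj1, Rsph1 and Rsph4a. The rule found 15 of the 17321 genes of the table: the transcription factor Foxj1, the radial spoke gene Rsph1, the dynein genes Dnah1, Dnai1 and Dnai2, and 10 Cfap genes (Cfap20, Cfap36, Cfap45, Cfap52, Cfap77, Cfap97, Cfap126, Cfap157, Cfap161 and Cfap206). Rsph4a was not analysed here. No exon of the 15 genes overlaps that of another gene of the table.

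The mRNA came from IP tissue of Long-Evans rats aged 70 days. Animals received no treatment and normal bedding (NT) or were reared with limited bedding (LB) from postnatal day 2 to 9. Of the NT rats 5 were female and 7 male, of the LB rats 7 were female and 8 male, and each animal gave 1 library. Total counts per animal ranged from 11836684 to 24169170 with a median of 16034036. A level is given as CPM, the count scaled to library size by the TMM method of edgeR, and 3 counts, taken as the limit of detection, correspond on average to 0.169 CPM in NT females, 0.205 CPM in NT males, 0.178 CPM in LB females and 0.189 CPM in LB males.

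In the brain, motile cilia are carried by the ependymal cells that line the ventricles, where their beating moves cerebrospinal fluid, and Foxj1 is the transcription factor that switches on the genes of the motile axoneme in such cells. Factors of the RFX family act beside it. Many neurons and glia carry a primary cilium, which lacks the dynein arms and radial spokes and does not beat. In a tissue sample, more cells of a ciliated type and more RNA per such cell cannot be told apart.

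NT males 6112 and 4113 stood apart from the other 25 animals in Foxj1 and in a pair of ependymal markers. The ependymal markers Ccdc153 and Tmem212, which were not among the genes tested because of their low counts, reached 20.8 and 12.4 CPM in 6112 and 4.93 and 2.27 CPM in 4113. In no other animal did Ccdc153 exceed 1.37 CPM or Tmem212 exceed 0.961 CPM, and they were at 0 in 2 and 13 animals. Of the 12 ependymal markers with a row, 9 were highest in 6112, and the summed level of 11 of them, without Foxj1, ranged from 19.6 to 25.9 CPM in NT females, 26.8 to 156 CPM in NT males, 20.5 to 41.5 CPM in LB females and 30.4 to 76.9 CPM in LB males. By this sum 6112 was highest (156 CPM), but 4113 (76.6 CPM) was near NT male 3113 (82.1 CPM), LB male 122 (76.9 CPM) and NT male 6111 (70.7 CPM). In 3113, 6111 and 122 the marker Cd24 alone was at 44.9, 39.6 and 37.2 CPM, and Ccdc153 at 0.444, 0.451 and 0.264 CPM. Animal 4113 had in addition 6340 CPM of Ttr (transthyretin, the leading product of the choroid plexus), where the next animal, LB female 5022, had 241 CPM. Of the 16 choroid plexus markers, 14 were highest in 4113, and their sum reached 6730 CPM there and at most 271 CPM in any animal outside the NT males. Folr1, a folate receptor of the choroid plexus, was at 31.6 CPM in 4113 and 5.82 CPM in 6112, and at 0 in 4 animals. Animal 6112 had 131 CPM of Slc5a7 (the choline transporter) and 18.9 CPM of Chat (choline acetyltransferase), against at most 2.33 and 1.04 CPM in any other animal. Results of the comparisons of males with females and of the correlations are given with and without 6112 and 4113. As a check of the tissue, the granule cell marker Gabra6 was present in every animal (193 to 1270 CPM), while Slc17a6, the vesicular glutamate transporter of deep nuclear projection neurons, ranged from 0.28 to 380 CPM with a median of 2.77 CPM.

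All 15 genes passed the filter on low counts, which asked in effect for about 0.624 CPM in at least 5 animals, but they did so at very different levels. Cfap77 and Cfap126 were at that level in only 6 and 7 animals, 3 of them NT males in each case. Per kilobase of exon, the median over the 27 animals was 144 CPM for Cfap36, 40.2 CPM for Cfap20 and 6.26 CPM for Cfap97. Rsph1 followed with 1.9 CPM per kilobase and Foxj1 with 1.78 CPM per kilobase, and the other 10 genes lay between 0.0777 (Cfap77) and 1.1 (Cfap157). Cfap77 reached 3 counts in only 12 animals, Cfap126 in 18, Cfap45 in 24 and Dnah1 in 26, and the other 11 genes reached 3 counts in all 27.

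For 11 of the 15 genes the animal with the highest level was 6112, and for 9 genes (Rsph1, Foxj1, Dnah1, Cfap45, Cfap77, Cfap161, Cfap126, Cfap52 and Dnai2) the 2 highest animals were 6112 and 4113. At least 2 times the median over all animals was reached by 11 of the 15 genes in 6112, by 9 in 4113, by 9 in LB male 9122, by 6 in LB female 5022 and by 5 in NT male 3113. In 14 of the 27 animals none of the 15 genes reached it. The share of all genes at this level, or highest in 6112 or 4113, was not counted, for the members or the marker lists. Animal 6112 was also highest for 8 of 12 deep nucleus projection neuron markers and 7 of 11 cholinergic motor neuron markers. The same held for 4 of 8 oligodendrocyte, 4 of 10 microglia and 3 of 12 astrocyte and Bergmann glia markers. It held for 1 of 16 choroid plexus, 1 of 14 meninges and 0 of 10 granule cell markers. Foxj1 was at 31.4 CPM in 6112 and 23.1 CPM in 4113, and between 1.58 and 7.82 CPM (median 3.37) in the other 25 animals. Many of the genes were thus high together in 6112, 4113 and 9122, and fewer in 5022, and Foxj1 was at 7.82 CPM in 9122 and 6.63 CPM in 5022.

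**Figure D1:**
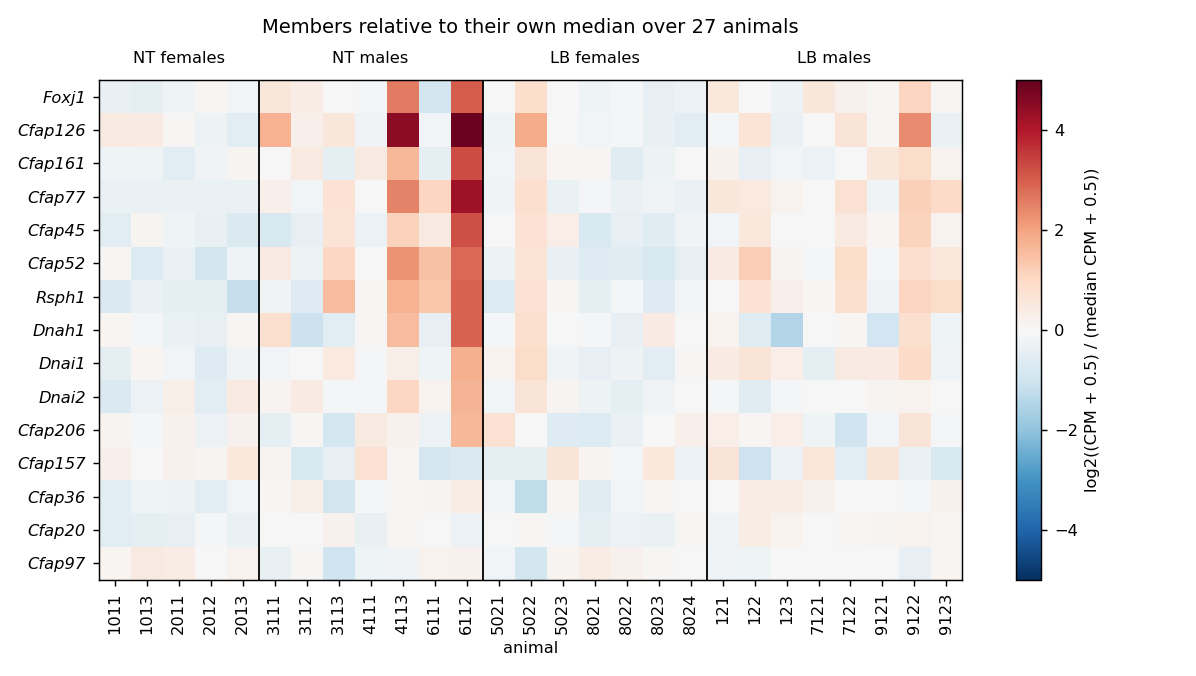
Each row is a gene and each column an animal, ordered by group. Colour gives log2 of CPM plus 0.5 relative to the median of the gene over the 27 animals. The column of NT male 6112 is red from Foxj1 to Dnah1 and that of NT male 4113 is paler red, with Cfap126 the darkest in each. Those of LB male 9122 and LB female 5022 are paler again, and Cfap36, Cfap20, Cfap97 and Cfap157 do not follow.

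Whether the genes varied together was measured by the correlation of each with Foxj1 over the 27 animals, on the scale of log2 of CPM plus 0.5. P values come from two-sided permutation tests with 100000 resamples (smallest possible p 1e-05) and were adjusted over the 12106 genes compared. Of 14 members, 9 had a positive correlation past the threshold, where 5.07% of all genes did (614 genes). The median Pearson r was 0.67 for the 14 members and -0.02 for all genes. Most of this rested on 6112 and 4113, the animals farthest from the median of Foxj1. Without them 3 members passed (Cfap126, Cfap161 and Dnai1), where 16% of all genes did (1931 genes), and the median r was 0.33.

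Cfap126 and Cfap161 followed Foxj1 most closely. Cfap126, known as flattop, and Cfap161 are proteins inside or at the axonemal microtubules. Cfap126 had 20.8 CPM in 6112, 15.4 CPM in 4113, 3.22 CPM in 9122, 2.11 CPM in 5022 and 1.91 CPM in NT male 3111, and at most 0.66 CPM in the other 22 animals, 2 of which were at 0. These are also the 5 animals with the most Foxj1, in the same order. The correlation of Cfap126 with Foxj1 was r = 0.91 (permutation test, p = 1e-05, adjusted p = 0.00448) and rho = 0.59 (permutation test, p = 0.00138, adjusted p = 0.0281), and r = 0.67 without 6112 and 4113 (permutation test, p = 0.0003, adjusted p = 0.00881). For Cfap161, r was 0.89 (permutation test, p = 1e-05, adjusted p = 0.00448) and rho 0.60 (permutation test, p = 0.00091, adjusted p = 0.024), and r was 0.62 without 6112 and 4113 (permutation test, adjusted p = 0.0128). Without these animals Cfap161 was the member with a positive rank correlation past the threshold (rho = 0.50, permutation test, adjusted p = 0.0489), while that of Cfap126 was rho = 0.49 (permutation test, adjusted p = 0.0555).

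The outer arm of the axonemal dynein includes the intermediate chains Dnai1 and Dnai2, and Dnah1 is a heavy chain of an inner arm. Dnah1 had 13.2 CPM in 6112 and 4.66 CPM in 4113, and 0.145 to 2.61 CPM in the other 25 animals. Dnai2 had 3.25 and 1.87 CPM in 6112 and 4113 and 0.214 to 1.31 CPM in the others. Their correlations with Foxj1 were r = 0.80 for Dnah1 (permutation test, adjusted p = 0.00658) and r = 0.78 for Dnai2 (permutation test, adjusted p = 0.00726), and fell to 0.43 (adjusted p = 0.0836) and 0.36 (adjusted p = 0.156) without 6112 and 4113 in the same test. Dnai1 was high in 6112 (9.58 CPM) but not in 4113 (3.07 CPM), below LB male 9122 (5.15 CPM) and LB female 5022 (5.03 CPM). Its r was 0.65 (permutation test, adjusted p = 0.0298) and 0.51 without 6112 and 4113 (adjusted p = 0.0387).

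Rsph1, Cfap52 and Cfap77 were high in 6112 and 4113 as well, and in further animals in which Foxj1 was not high. Rsph1 is a protein of the radial spoke head, and Cfap52 and Cfap77 are proteins inside the axonemal microtubules. NT male 6111 had the lowest Foxj1 of all animals (1.58 CPM), yet 5.87 CPM of Rsph1, 4.59 CPM of Cfap52 and 0.827 CPM of Cfap77, which is at least 3 times the median of each gene over all animals (1.9, 1.33 and 0.133 CPM). NT male 3113, with 3.44 CPM of Foxj1, had 6.5 CPM of Rsph1 and 3.28 CPM of Cfap52, and LB male 122, with 3.37 CPM of Foxj1, had 3.5 and 3.76 CPM. These 3 genes therefore went with each other more than with Foxj1. Their rho with Foxj1 was 0.45 (Rsph1), 0.49 (Cfap52) and 0.59 (Cfap77), and 0.30, 0.36 and 0.48 without 6112 and 4113. Spearman's rho over the 27 animals was 0.86 between Cfap77 and Cfap52, 0.81 between Rsph1 and Cfap77 and 0.79 between Rsph1 and Cfap52, and 0.83, 0.76 and 0.73 without 6112 and 4113. With Foxj1 their r of 0.64 (Rsph1), 0.70 (Cfap52) and 0.83 (Cfap77) fell to 0.18, 0.22 and 0.38 without 6112 and 4113 (permutation test, adjusted p = 0.528, 0.424 and 0.137), so these Pearson correlations rest on those animals. The rank correlation of Cfap77 with Foxj1 passed over all animals (rho = 0.59, permutation test, p = 0.00177, adjusted p = 0.0311) and not without them (rho = 0.48, adjusted p = 0.0614 in the same test). Cfap45, another protein inside the microtubules, went the same way (r = 0.74, and 0.30 without them, adjusted p = 0.0116 and 0.246 in the same test) and was closest to Rsph1 (rho = 0.82).

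These 4 genes, and others of the set, also went against the markers of cerebellar granule cells. Spearman's rho with the summed level of the 10 granule cell markers, given as a description, was -0.76 for Rsph1, -0.80 for Cfap52, -0.75 for Cfap77 and -0.62 for Cfap45, and -0.41 for Foxj1. Without 6112 and 4113 the values were -0.72, -0.77, -0.71 and -0.55, and -0.30 for Foxj1. Cfap20 (-0.67) and Dnai1 (-0.61) also went against this sum over all animals, while Cfap157 (0.53) and Cfap97 (0.48) rose with it. With the summed ependymal markers rho was 0.83 for Rsph1, 0.85 for Cfap52, 0.83 for Cfap77 and 0.70 for Cfap45. For the other genes it ranged from -0.52 (Cfap157) to 0.74 (Cfap20), with 0.51 for Foxj1. With the summed microglia markers rho was 0.75 for Rsph1, 0.74 for Cfap52, 0.78 for Cfap77 and 0.69 for Cfap45. With the summed meninges markers it was 0.61, 0.69, 0.66 and 0.54 for these genes in the same order. With the summed choroid plexus markers it was 0.23, 0.24, 0.17 and 0.34. The summed granule cell markers ranged from 8580 to 9130 CPM in NT females, 2800 to 7460 CPM in NT males, 6780 to 8900 CPM in LB females and 4210 to 8930 CPM in LB males, with none of the 10 at 0 in any animal. The lowest sum was that of 6112. Levels given as CPM are relative to the TMM-scaled library size, and the part of tissue composition in these values was not tested.

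**Figure D2:**
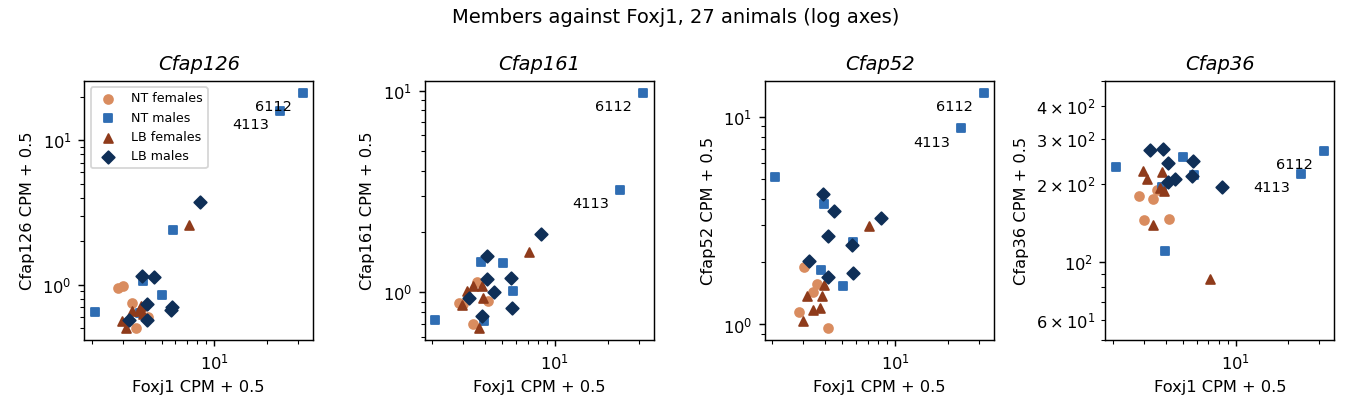
Each point is an animal, with Foxj1 on the x axis and Cfap126, Cfap161, Cfap52 or Cfap36 on the y axis, as CPM plus 0.5 on log axes. Cfap126 and Cfap161 are highest where Foxj1 is highest, Cfap52 spreads widely at low Foxj1, and Cfap36 stays between 85.5 and 273 CPM at any level of Foxj1.

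**Figure D3:**
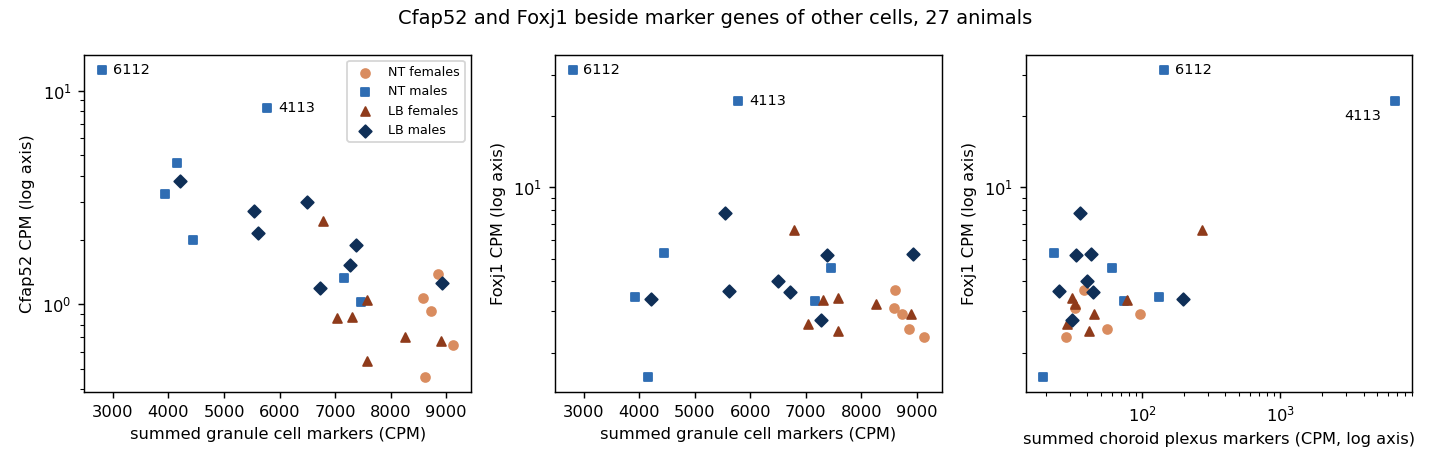
Each point is an animal. The left and middle panels plot Cfap52 and Foxj1 (CPM, log axis) against the summed granule cell markers (CPM), and the right panel plots Foxj1 against the summed choroid plexus markers (CPM, log axes). Cfap52 falls as the granule cell sum rises, and animals 6112 and 4113 lie above all others in Foxj1.

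Cfap36, Cfap20 and Cfap97, the genes with the highest levels, did not follow Foxj1. Cfap36, which binds a small GTPase of the primary cilium, ranged from 85.5 CPM (LB female 5022) to 273 CPM (LB male 122) with r = 0.13 (permutation test, adjusted p = 0.735). Cfap20, a protein of microtubule inner junctions that is made in many cell types, ranged from 30.6 to 59 CPM with r = 0.17 (permutation test, adjusted p = 0.67). Cfap97 ranged from 6.11 to 17.6 CPM with r = -0.22 (permutation test, adjusted p = 0.546), and was the member with a negative rank correlation past the threshold (rho = -0.53, permutation test, adjusted p = 0.0488; -0.66 without 6112 and 4113, adjusted p = 0.0244). None of these genes was highest in 6112 or 4113.

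Cfap157, a protein of the basal body region, and Cfap206, which lies at the base of the radial spokes, also stood apart from the set. Cfap157 ranged from 0.66 to 3.5 CPM, was at 0.952 CPM in 6112 and 2 CPM in 4113, and had r = -0.13 with Foxj1 (permutation test, adjusted p = 0.754). Cfap206 was high in 6112 (5.26 CPM) but not in 4113 (1.6 CPM), with LB female 5021 next at 2.6 CPM, and had r = 0.50 (permutation test, adjusted p = 0.126). Of the 14 members, 5 thus did not pass with Foxj1.

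Promoters of genes that move with Foxj1 and of a gene that does not are shown for comparison, taken from RefSeq (build GRCr8, 250 bases before to 50 bases after the start of the gene, on the strand of the gene). Of the 15 genes, 11 were matched by symbol. The motifs searched, on both strands, were GTTGCC, the core of the sites of RFX factors, and TGTTTAC or TGTTTGT, the core of sites of forkhead factors, the family of Foxj1, and capitals mark their matches, which do not overlap. Cfap161 lies at chr1:147177772-147178071 on the minus strand, Cfap126 at chr13:86058892-86059191 on the plus strand and Cfap20 at chr19:9614728-9615027 on the plus strand.
Cfap161: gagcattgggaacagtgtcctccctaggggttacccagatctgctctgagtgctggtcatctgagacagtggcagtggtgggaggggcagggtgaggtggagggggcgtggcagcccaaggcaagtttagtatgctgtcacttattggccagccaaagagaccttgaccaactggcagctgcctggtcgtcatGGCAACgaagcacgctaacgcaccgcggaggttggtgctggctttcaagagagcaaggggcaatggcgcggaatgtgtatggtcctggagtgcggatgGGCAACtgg
Cfap126: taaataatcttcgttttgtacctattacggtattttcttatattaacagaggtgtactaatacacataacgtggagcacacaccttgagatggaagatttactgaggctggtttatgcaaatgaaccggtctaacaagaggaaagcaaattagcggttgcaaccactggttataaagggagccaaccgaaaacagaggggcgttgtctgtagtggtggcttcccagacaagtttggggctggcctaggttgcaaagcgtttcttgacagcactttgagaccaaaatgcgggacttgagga
Cfap20: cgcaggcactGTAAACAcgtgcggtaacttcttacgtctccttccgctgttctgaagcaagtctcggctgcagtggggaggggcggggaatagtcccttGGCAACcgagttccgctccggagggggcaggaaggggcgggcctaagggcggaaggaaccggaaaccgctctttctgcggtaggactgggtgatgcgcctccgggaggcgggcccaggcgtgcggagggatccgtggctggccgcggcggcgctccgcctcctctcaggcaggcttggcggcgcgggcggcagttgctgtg
Cfap161 has the RFX core 57 bases before and 42 bases after its start, Cfap20 has it 151 bases before and a forkhead core 240 bases before, and Cfap126 has neither. Over the members the RFX core was found for 4 of 11 (Cfap161, Cfap20, Cfap36 and Dnai2) and in 12.2% of the 33469 promoters of the table, and a forkhead core for 1 of 11 and in 9.87%. The RFX core was present in Cfap161 and Dnai2, which passed with Foxj1 over all animals, and in Cfap20 and Cfap36, which did not, and the forkhead core was in Cfap20.

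Foxj1 itself had a median of 2.9 CPM in NT females (2.33 to 3.67), 4.54 CPM in NT males (1.58 to 31.4), 3.21 CPM in LB females (2.47 to 6.63) and 3.81 CPM in LB males (2.75 to 7.82). Rsph1 had 1.22 CPM in NT females (0.568 to 1.42), 5.87 CPM in NT males (1.03 to 17.9), 1.67 CPM in LB females (0.992 to 3.43) and 2.94 CPM in LB males (1.6 to 4.53). Cfap52 had 0.935 CPM in NT females (0.458 to 1.39), 3.28 CPM in NT males (1.03 to 12.5), 0.865 CPM in LB females (0.543 to 2.46) and 2.03 CPM in LB males (1.19 to 3.76). For Rsph1, 6 of 7 NT males lay above every NT female, for Cfap52 5 of 7 and for Foxj1 4 of 7, while 1 NT male (6111) lay below every NT female in Foxj1.

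**Figure D4:**
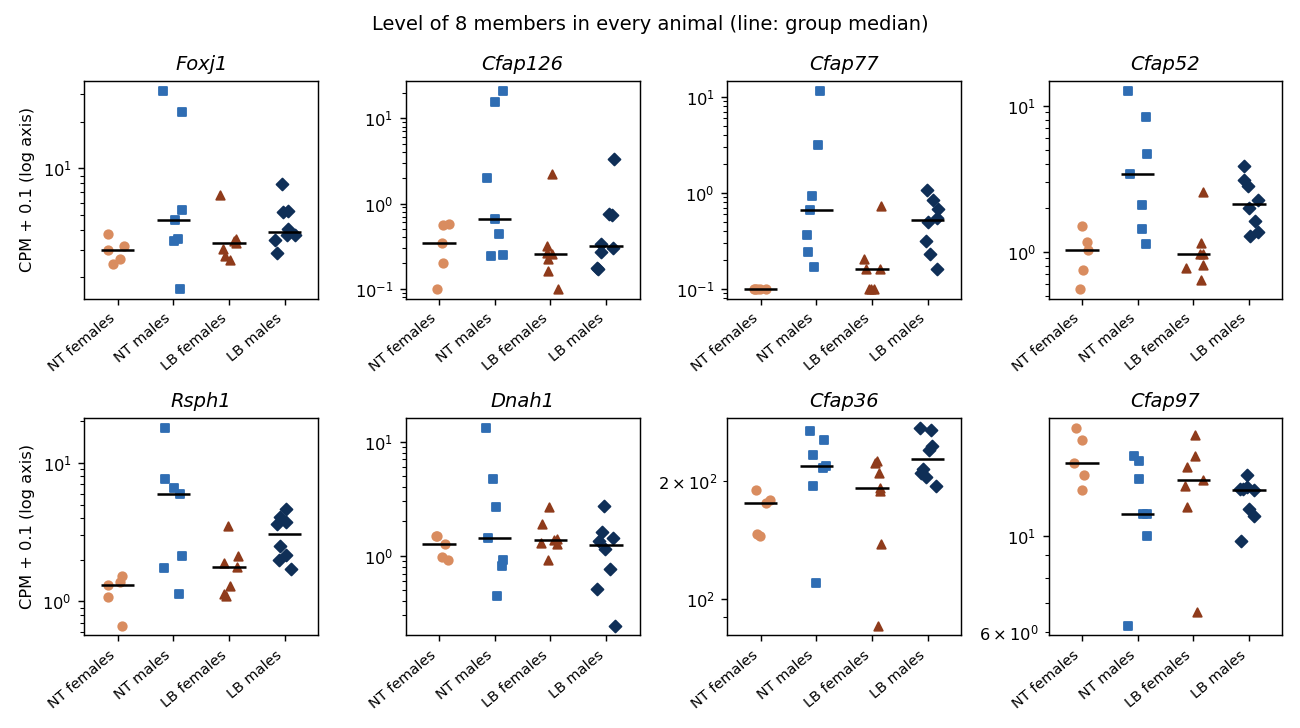
Each point is an animal, plotted as CPM plus 0.1 on a log axis by group for 8 genes, and the black line is the group median. NT males spread over the widest range in Foxj1, Cfap126, Cfap77, Cfap52, Rsph1 and Dnah1, and all 5 NT females lie at 0 CPM (plotted at 0.1) for Cfap77.

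Between NT males and NT females, 7 of the 15 genes passed the threshold and all 7 were higher in males, namely Rsph1, Foxj1, Cfap45, Cfap77, Cfap161, Cfap126 and Cfap52. Over all genes tested, 15.2% passed in this comparison, 10.1% with higher expression in males. Cfap77 and Cfap126 reached the level of the filter in only 6 and 7 animals, 3 of them NT males in each case. That these genes could be tested thus depended in part on the group in which they were high. How far this raises the count of 7 relative to all genes was not tested. The log2 fold change was 2.47 for Rsph1 (standard error 0.529, adjusted p = 0.0106 by the quasi-likelihood F test of edgeR, Benjamini-Hochberg adjusted), 1.84 for Foxj1 (0.531, adjusted p = 0.0244 from the same edgeR test) and 2.38 for Cfap52 (0.532, adjusted p = 0.0115 from the same edgeR test). It was 2.54 for Cfap45, 2.41 for Cfap161 and 4.42 for Cfap126. The other 8 genes did not pass. Their log2 fold changes ranged from -0.50 (Cfap157) to 1.59 (Dnah1, edgeR adjusted p = 0.0891), and the median over the 15 genes was 1.59 where that of all genes was 0.03. These p values set a difference against the spread between animals within the groups, and take each animal as independent. A fit with a block for animals of like labels is given below.

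Without 6112 and 4113, which is a setting chosen after the data had been seen, 1 gene passed of the 13 that kept enough counts to be tested, where 5% of all genes passed. This was Rsph1 (log2 fold change 1.64, standard error 0.447, edgeR adjusted p = 0.0415). Cfap52, with a log2 fold change of 1.43, did not pass (edgeR adjusted p = 0.0545), Foxj1 was at 0.32 (edgeR adjusted p = 0.505), Cfap161 at 0.47 (edgeR adjusted p = 0.552) and Dnah1 at 0.02. Cfap77 and Cfap126 did not pass the filter on low counts in this fit. The count was also smaller without 6112 alone (2 genes, where 9.46% of all genes passed), without any one of NT females 1011, 1013, 2011 and 2012 (3 or 4 genes, where 4.84% to 7.38% did), and with limma-voom (3 genes, where 10.3% did). When animals whose labels share all but the last digit were fitted as a block, 0 of the 15 genes passed (limma with an estimated correlation of 0.17), where 0.0165% of all genes did.

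**Figure D5:**
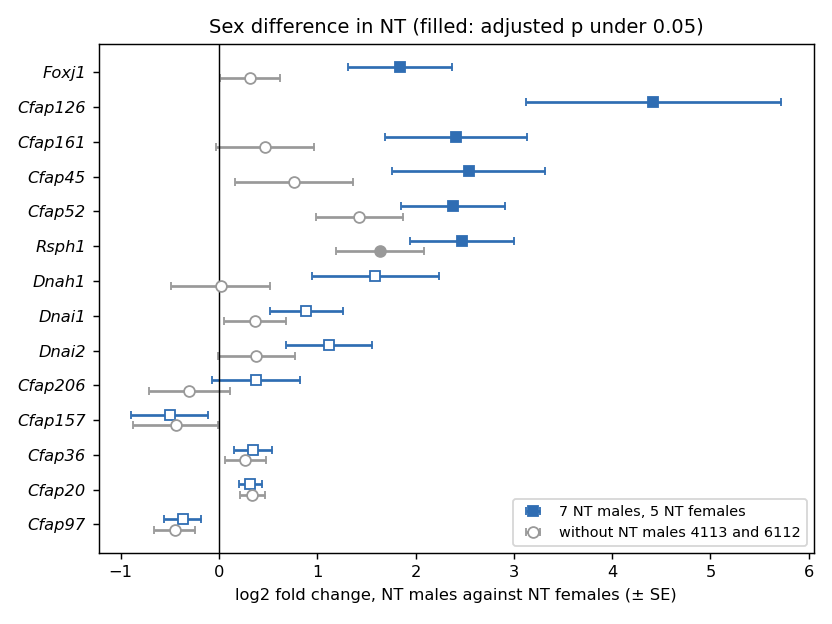
Points are log2 fold changes of NT males against NT females with standard errors, blue squares with all animals and grey circles without NT males 4113 and 6112, filled where the adjusted p passed. The values of Foxj1, Cfap161, Cfap45 and Dnah1 move toward 0 without these animals, those of Rsph1 and Cfap52 stay above 1, and those of Cfap20 and Cfap36 hardly move. Cfap77 is left out because every NT female was at 0.

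Cfap77 was the gene of the set that separated NT males from NT females completely. All 5 NT females had 0 counts, and the 7 NT males had 0.0688, 0.14, 0.26, 0.555, 0.827, 3.07 and 11.4 CPM. It was the only one of the 15 genes for which every NT male lay above every NT female, as 3.62% of all genes tested did. The highest values were those of 6112 (203 counts) and 4113 (46 counts), while 3112 had 1 count and 4111 had 2 counts, which is under the limit of detection. The limit that 3 counts set in NT females was 0.169 CPM. Without 6112 and 4113, the mean of the 5 NT males, 0.37 CPM, was 2.19 times this limit, and their median was 1.54 times it. Animals 6112 and 4113 raise the mean of the group to 2.33 CPM. The adjusted p over all animals was 0.0112 (edgeR). In LB females Cfap77 was at 0 in 3 of 7 animals and at most 2 counts in 3 more, with 0.628 CPM in 5022, and in LB males it ranged from 0.0593 to 0.961 CPM with a median of 0.422 CPM. LB males and LB females overlapped for this gene (2 of 8 males above every female, edgeR adjusted p = 0.4).

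The genes whose rank pattern over the 27 animals was most like that of Cfap77 were Blnk (Spearman's rho 0.883), Stmn4 (0.871), Marcksl1 (0.866), Tmem107 (0.866), Stpg1 (0.865), Tctex1d1 (0.863), Cfap52 (0.863), Lpcat2 (0.863), Rsph10b (0.861) and Cldn10 (0.860). Without 6112 and 4113 these values lay between 0.824 and 0.870. Cfap52 is thus the member nearest to Cfap77, and Tctex1d1 and Rsph10b belong to the wider list of motile cilia genes. These values are ranks with many ties, since 8 animals had no count of Cfap77.

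In LB, 0 of the 15 genes differed between males and females by edgeR (0.248% of all genes did), and 0 by DESeq2 and by limma-voom. Cfap36, Cfap20 and Cfap52 (3 genes) had unadjusted p values under 0.05, each with a higher mean in males, where 17% of all genes were at that level. Cfap52 came nearest (log2 fold change 1.09, standard error 0.451, edgeR adjusted p = 0.215), with 3 of 8 LB males above every LB female. Without LB female 5022 it passed, while 8.76% of all genes did. The log2 fold changes of the other genes apart from Cfap77 ranged from -0.36 (Dnah1) to 0.77 (Rsph1).

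Over all males and all females, 10 of the 15 genes passed and all were higher in males, where 29.3% of all genes passed and 16.9% were higher in males. Beside the 7 genes above these were Cfap36 (log2 fold change 0.36, edgeR adjusted p = 0.0395), Dnai1 (0.64, edgeR adjusted p = 0.0486) and Cfap20 (0.29, edgeR adjusted p = 0.00981). The limit that the filter sets on the calls of Cfap77 and Cfap126, given above, holds for this count too. Without 6112 and 4113 there were 3 (Rsph1 at 1.21, Cfap20 at 0.29 and Cfap52 at 1.26, edgeR adjusted p = 0.00582, 0.0138 and 0.00452), where 25.1% of all genes passed. Leaving out 6112 alone gave 4 genes and leaving out LB male 9122 gave 6. The calls of Dnai1 and Cfap36 held in only 8 and 15 of the 27 fits that left out 1 animal. With animals of like labels as a block, Rsph1, Cfap77 and Cfap52 (3 genes) passed, where 8.5% of all genes did, while Cfap20 (limma adjusted p = 0.0572), Cfap36 (0.127) and Dnai1 (0.153) did not. Cfap20 differed little in size. It had 35.1 ± 4.35 CPM in NT females (SD, n = 5), 44 ± 6.24 CPM in NT males (SD, n = 7), 41 ± 5.62 CPM in LB females (SD, n = 7) and 48.7 ± 5.48 CPM in LB males (SD, n = 8), and 6 of 8 LB males lay above every LB female.

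Limited bedding changed none of the 15 genes past the threshold. Over all animals 0 passed by edgeR, DESeq2 and limma-voom, where 0.00826% of all genes passed by edgeR, and Cfap20 alone had an unadjusted p under 0.05 (log2 fold change 0.19, standard error 0.0785, edgeR adjusted p = 0.277). Between LB and NT females 0 passed (0.00826% of all genes), and 0 had an unadjusted p under 0.05. Between LB and NT males 0 passed (0% of all genes), but 9 of the 15 genes had an unadjusted p under 0.05, all lower in LB, where 10% of all genes were at that level. The log2 fold change was -1.23 for Foxj1 and -1.59 for Dnah1 (edgeR adjusted p = 0.462 for each). Without 6112 and 4113 none of the 13 genes tested had an unadjusted p under 0.05 in LB against NT males, and the log2 fold changes lay between -0.29 (Dnai2) and 0.47 (Cfap45).

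As to the interaction between sex and treatment, 0 genes passed by edgeR (0% of all genes), DESeq2 and limma-voom, and 6 members had an unadjusted p under 0.05, where 4.71% of all genes did. Foxj1, at -1.50 (standard error 0.682, edgeR adjusted p = 1), went to 0.02 (0.395) without 6112 and 4113. The comparisons of males share the NT males with those of NT males and females, so they are not separate evidence.

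The wider set of motile cilia genes outside the rule (tektins, dynein assembly factors, nexin-dynein regulators and others) was counted beside the members. Of 93 genes listed, 67 had a row and 48 were tested. Between NT males and females 22 passed and all 22 were higher in males, where 10.1% of all genes were higher. The median log2 fold change was 0.95 over the 48 genes. In the fit without 6112 and 4113, 5 of 42 passed and all 5 were higher in males, with a median log2 fold change of 0.23, where 3.51% of all genes were higher. Only 42 of the 48 genes kept enough counts there, so testing of the others depended in part on 6112 and 4113. How far this raises the count of 22 with all animals was not tested. The smallest adjusted p values belonged to Ccdc146 (2.74), Tctex1d1 (3.38), Rsph10b (3.16), Tekt1 (2.37) and Enkur (3.26 in log2). Over all animals 24 were higher in males, where 16.9% of all genes were, and 1 was lower (-0.27). The lower gene was Tctn1, a gene of the transition zone of primary cilia. Without 6112 and 4113, 10 of 42 were higher. The share of all genes higher in males in that fit is not given here, so this count is not read as a result about these genes. In LB and in every comparison of LB with NT 0 passed, and in LB 1 of 42 (Dnaaf3) passed without 6112 and 4113. The share of all genes in that last fit is not given either, and the call is not read further. Of the 67 genes, 42 were highest in 6112, and for 29 the 2 highest animals were 6112 and 4113. The share of all genes with this pattern was not counted. With Foxj1, 20 of the 48 had a positive correlation past the threshold (5.07% of all genes did). Without 6112 and 4113 it was 14 (16% of all genes).

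Other cell types also moved with Foxj1. Of 8 oligodendrocyte markers, 7 correlated with Foxj1 past the threshold (median r 0.69) and 6 still did without 6112 and 4113 (median r 0.66), with sums of 7680 to 11800 CPM in NT females, 11100 to 52900 CPM in NT males, 11400 to 40900 CPM in LB females and 14100 to 43700 CPM in LB males. Of 7 ependymal markers compared, 3 did with and 3 without these animals, and these (Tekt1, Dynlrb2 and Ak7) also belong to the wider list of motile cilia genes. Of 14 choroid plexus markers 3 did and 0 without them. The count went from 2 to 4 of 12 astrocyte and Bergmann glia markers and from 2 to 4 of 10 microglia markers. Over all genes the share with a positive correlation past the threshold went from 5.07% to 16% in the same step.

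Between NT males and NT females, markers higher in males were 6 of 7 for ependymal cells (Foxj1 left out), 8 of 14 for the choroid plexus, 8 of 8 for oligodendrocytes, 4 of 5 for cholinergic motor neurons, 4 of 10 for microglia, 4 of 12 for astrocytes and Bergmann glia, 6 of 12 for deep nucleus projection neurons and 2 of 12 for the meninges, against the 10.1% of all genes given above. Of 10 granule cell markers 7 were lower in males, as were 5.08% of all genes. When 6112 and 4113 were left out, the markers higher in males were 3 of 5 for ependymal cells, 0 of 10 for the choroid plexus, 2 of 8 for oligodendrocytes, 2 of 3 for cholinergic motor neurons, 1 of 10 for microglia, 1 of 12 for astrocytes and Bergmann glia, 3 of 12 for deep nucleus projection neurons and 2 of 12 for the meninges, against 3.51% of all genes. Granule cell markers were then lower for 3 of 10, against 1.49%. Fewer ependymal, choroid plexus and cholinergic markers kept enough counts to be tested without 6112 and 4113. That the others could be tested with all animals thus depended in part on these 2 NT males. How far this raises their counts relative to all genes, here or in the correlations with Foxj1, was not tested. The part of these cell types in the differences of the members was not tested.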

How the data were processed

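The 15 genes and all marker lists were chosen with earlier results of these data known. The authors aligned reads with STAR 2.5.2b to rn6 and counted them on genes with featureCounts of Subread 1.5.1 (per the submitters' processing notes), and deposited raw counts for 17321 genes. The annotation release, the strand setting and the treatment of reads that map to several places are not given in the sources used here. Columns were matched to animals by sample title, and groups come from the labels.

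The filter (filterByExpr, with a minimum of 10 counts and a total of 15) kept 12107 genes. Counts were fitted with edgeR 4.0.16 (R 4.3.3, TMM, quasi-likelihood, prior count 0.125) in 1 model of the 4 groups, and calls were made at a Benjamini-Hochberg adjusted p under 0.05 across the whole tested table. The standard error is the size of a log2 fold change divided by the square root of F. Correlations used log2 of CPM plus a pseudocount of 0.5 and permutation tests (100000 resamples, 10000 when 1 animal was left out) in numpy. Alternatives were DESeq2 1.42.0, limma-voom (limma 3.58.1), other normalizations and filters, a block for label prefixes and leaving out each animal. Scripts were tested on simulated data. Floors of 3 counts cover counting error only. No 2 animals of a group were duplicates: over 80 such pairs the chi-square of their counts was at least 8.45 per degree of freedom.

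Genes were named by a rule that accounts for every member and gives values for Foxj1, Rsph1, Cfap77, members past the threshold, the 5 highest per kilobase, the 5 highest and 3 lowest correlations with Foxj1, and members with 1 animal at least 5 times the median of the others. From the other lists it names at most 5 genes past the threshold per comparison and the defining markers. Gabra6, Slc17a6, Tctn1, Dnaaf3, Dynlrb2 and Ak7 were named after their values were seen.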

Additional observations from a re-analysis of the deposited data

Results flagged for a closer look

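The highest and lowest animal of each of the 15 genes was compared with the rest of its group by Dixon's test, over 60 sets of animals. The test flags about 1 in 20 sets by chance where values follow a normal distribution. CPM was used here without a log scale and the same animals recur for each gene, so that rate need not hold. It flagged 16 values, 7 of them in NT male 6112 and 6 in LB female 5022.

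NT male 6112 lay apart from the other NT males, as the highest, in Rsph1 (17.9 CPM), Dnai1 (9.58 CPM), Dnah1 (13.2 CPM), Cfap45 (9.07 CPM), Cfap77 (11.4 CPM), Cfap161 (9.24 CPM) and Cfap206 (5.26 CPM). Foxj1 and Cfap126 were not flagged in that group, since 4113 was high as well.

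LB female 5022 was the highest LB female, apart from the others, in Rsph1 (3.43 CPM), Foxj1 (6.63 CPM), Dnai1 (5.03 CPM), Cfap77 (0.628 CPM, 11 counts), Cfap126 (2.11 CPM) and Cfap52 (2.46 CPM). The same animal had the lowest Cfap36 of all 27 (85.5 CPM) and the highest summed oligodendrocyte markers of the LB females (40900 CPM), and the part of the latter was not tested.

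LB male 9122 was flagged as the highest LB male in Cfap45 (1.72 CPM) and Cfap126 (3.22 CPM), and LB male 122 as the lowest in Dnai2 (0.264 CPM).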

How the results depend on the processing

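The count of 7 genes between NT males and females moved to 3 with limma-voom, 2 with 10 counts asked in every animal (6 of the 15 genes left to test), 0 with a block for label prefixes, 1 without NT males 4113 and 6112, 2 without these and LB females 5022, 8021 and 8023 and LB male 123, and 0 with limma-voom without 4113 and 6112. Leaving out 1 animal gave 2 to 9, where 590 to 2735 of all genes passed. Over all animals the count of 10 moved to 5, 4, 3, 3, 3 and 3 in the same settings. With 1 animal left out it was 4 to 10, where 2805 to 5125 of all genes passed. In LB, leaving out 1 animal gave 0 to 1, where 12 to 1059 of all genes passed. The 9 genes correlated with Foxj1 became 3 with values centred within groups and 3 with Spearman's rho. They became 3 without the 2 animals farthest from the median of Foxj1 and 1 with Spearman's rho without them. When 1 animal was left out they were 3 to 9, where 179 to 847 of all genes passed. The share of all genes is given above for some of these settings. Where it is not given, a count shows only how the calls moved and is not read against all genes. Where fewer genes could be tested this lowers a count by construction. In the other cases the cause was not tested. Settings without named animals beyond single ones, and the rank correlation without 2 animals, were chosen after seeing the data. DESeq2, library size and upper-quartile normalization and no filter kept each count within 1.5 times, and every comparison of LB with NT and the interaction stayed at 0 in each setting run. No log2 fold change of a member past the threshold changed sign in any setting. Low counts limit Cfap77, Cfap126 and Cfap45 most.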
